A study of Mus musculus with 56 samples.

Results

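The folding machinery of the endoplasmic reticulum (ER) and its stress response, the unfolded protein response (UPR), were followed through 33 genes. They were chosen by symbol from the pathway, as rows of the expression table whose Entrez gene ID maps to a listed mouse gene, so no measured value entered the rule itself. All 33 were found among the 24424 genes of the table, and all 33 passed the filter on low values (a mean of at least 4 on the log2 scale over the 15 libraries) that left 12133 genes for testing. By role they are 4 stress sensors and transcription factors, 9 HSP70 and HSP90 chaperones with their co-factors, 6 lectin chaperones and disulfide isomerases, 2 prolyl isomerases, 4 factors of ER-associated degradation and 8 subunits of the translocon, the translocon-associated (TRAP) complex and signal peptidase.

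The study built a sensitive assay for 5-hydroxymethylcytosine, and beside it sequenced RNA of progenitors that had been sorted out of C57BL/6 mouse marrow. T2F3 mice have the genotype Tet2-/-Flt3ITD: they lack Tet2, an enzyme that oxidises 5-methylcytosine, and carry an internal tandem duplication of the cytokine receptor gene Flt3. The RNA libraries came from T2F3 multipotent progenitors (MPP, 3 libraries), wild-type (WT) MPP (4 libraries), T2F3 granulocyte-macrophage progenitors (GMP, 3 libraries) and WT GMP (5 libraries), and 41 further samples, of genomic DNA, were not analysed here. MPP were sorted as lineage-negative, Sca-positive, cKit-positive cells with CD48 and without CD150, and GMP as lineage-negative, Sca-negative, cKit-positive cells with CD34 and CD16/32. The titles of all 15 libraries, WT included, carry the word leukemia, and the labels give neither age nor sex, nor which cells carry the alleles, and they refer to a treatment of the animals without saying what it was. Nothing in them says that each library came from its own animal; what the p-values weigh is therefore the variation among libraries, which may be technical. These are bulk samples, in which fewer cells of a type and less RNA per cell cannot be told apart.

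Proteins bound for secretion, membranes or granules enter the ER through the SEC61 translocon, lose their signal peptide there and fold with the help of chaperones. When unfolded protein builds up, the sensors IRE1 (encoded by Ern1), ATF6 and PERK (encoded by Eif2ak3) are activated. IRE1 splices the Xbp1 mRNA so that it encodes an active transcription factor, ATF6 is cleaved to release another, and PERK slows translation through phosphorylation of the initiation factor eIF2. XBP1 and cleaved ATF6 switch on chaperones, disulfide isomerases and degradation factors, many of them through a promoter motif known as the ER stress response element (ERSE). GMP make granule proteins in bulk, and these pass through the ER. A gene-level table does not show Xbp1 splicing, ATF6 cleavage or PERK activity.

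The ERSE is shown because it divides the members into classes. The members were chosen from the pathway in which this motif is known to act. A high share of matches among them therefore follows in part from that choice. It was searched as the exact letters CCAAT, then 9 bases of any kind, then CCACG, on both strands, in RefSeq promoters of build GRCm38.p6 that run from 250 bases before to 50 bases after the gene start. Promoters were present for 27 of the 33 members; Atf6, Hyou1, Manf, Sec61a1, Spcs3 and Ssr2 had no entry. Of the 27, 8 (29.6%) held at least 1 exact match, against 37 of 27025 genes in the table (0.137%). The matches, with the fixed letters in capitals and read along the strand that carries CCAAT first, were:
Hspa5, chr2:34772025-34772043: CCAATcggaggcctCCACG
Hsp90b1, chr10:86705533-86705551: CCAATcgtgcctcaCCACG
Hsp90b1, chr10:86705638-86705656: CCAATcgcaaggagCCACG
Creld2, chr15:88819520-88819538: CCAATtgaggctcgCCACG
Dnajc3, chr14:118937827-118937845: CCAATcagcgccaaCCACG
Calr, chr8:84847075-84847093: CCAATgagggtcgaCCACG
Canx, chr11:50325800-50325818: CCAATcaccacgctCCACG
Pdia6, chr12:17266491-17266509: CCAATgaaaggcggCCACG
Syvn1, chr19:6046532-6046550: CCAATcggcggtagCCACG
They began between 44 and 212 bases before the gene start. The printed strand is minus for Creld2, Canx and the second match of Hsp90b1 and plus for the others. In Syvn1, Hspa5, Pdia6, Dnajc3, Canx and 1 of the 2 matches in Hsp90b1 the motif lay on the strand of the gene, and in Calr, Creld2 and the other match in Hsp90b1 on the opposite strand.

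The outer parts of the motif were far more common: CCAAT was in 22 of the 27 promoters (41.1% of all genes) and CCACG in 23 (35.5% of all genes), counts that include the exact matches. The shorter related motif ERSE-II, searched as ATTGG, 1 base of any kind and CCACG, was in 2 promoters, those of Dnajb11 and Herpud1, against 12 of the 27025 genes. ACGTG, the core of sites that XBP1 and other bZIP factors can bind, was in 11 of the 27, against 21.8% of all genes. A match describes the letters of the window and shows no binding. The promoter of Hspa5, which encodes the chaperone BiP, is given in full with the ERSE in capitals, on the plus strand at chr2:34771840-34772139. Beside it, marked likewise, is that of Syvn1, on the plus strand at chr19:6046326-6046625. Both were picked with the values known, as the highest and lowest of the 8 ERSE members in the MPP genotype comparison, where only Syvn1 passed:
Hspa5 promoter: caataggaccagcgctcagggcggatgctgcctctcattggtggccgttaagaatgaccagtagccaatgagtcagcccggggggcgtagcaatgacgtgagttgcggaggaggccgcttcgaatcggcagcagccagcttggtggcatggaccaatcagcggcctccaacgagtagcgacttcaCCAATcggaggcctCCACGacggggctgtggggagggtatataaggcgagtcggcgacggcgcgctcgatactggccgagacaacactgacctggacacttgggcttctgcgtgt
Syvn1 promoter: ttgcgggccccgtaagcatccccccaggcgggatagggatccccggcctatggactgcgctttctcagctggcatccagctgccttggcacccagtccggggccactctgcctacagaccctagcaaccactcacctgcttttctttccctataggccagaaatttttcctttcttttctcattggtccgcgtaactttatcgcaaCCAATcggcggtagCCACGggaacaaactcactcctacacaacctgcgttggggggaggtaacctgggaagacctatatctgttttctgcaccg

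Expression values are the authors' regularised log2 values, a scale that pulls low and variable genes towards their mean, so differences of weakly expressed genes are understated. The table gives no counts, so the depth per library is unknown. The sorted populations matched their markers: of 10 tested GMP markers, 10 were higher in GMP than in MPP in T2F3 and 9 in WT, and of 10 tested MPP and stem cell markers, 9 were lower in GMP in each genotype. Tet2 ran from 9.67 to 9.90 in T2F3 MPP and from 9.71 to 9.89 in WT MPP, and from 9.88 to 10.30 in T2F3 GMP and from 9.87 to 10.19 in WT GMP. These ranges overlap, and a value over the whole gene cannot show a deleted exon, so it did not check the genotype labels. A pair of GMP libraries stood apart in their ribosomal protein genes: WT GMP 1 lay 0.85 and T2F3 GMP 2 0.53 above the mean of its group (log2, median over 73 genes), while T2F3 GMP 3 lay at -0.41. The counts for GMP, and the GMP differences of several members, are also given without WT GMP 1 or T2F3 GMP 2.

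**Figure D1:**
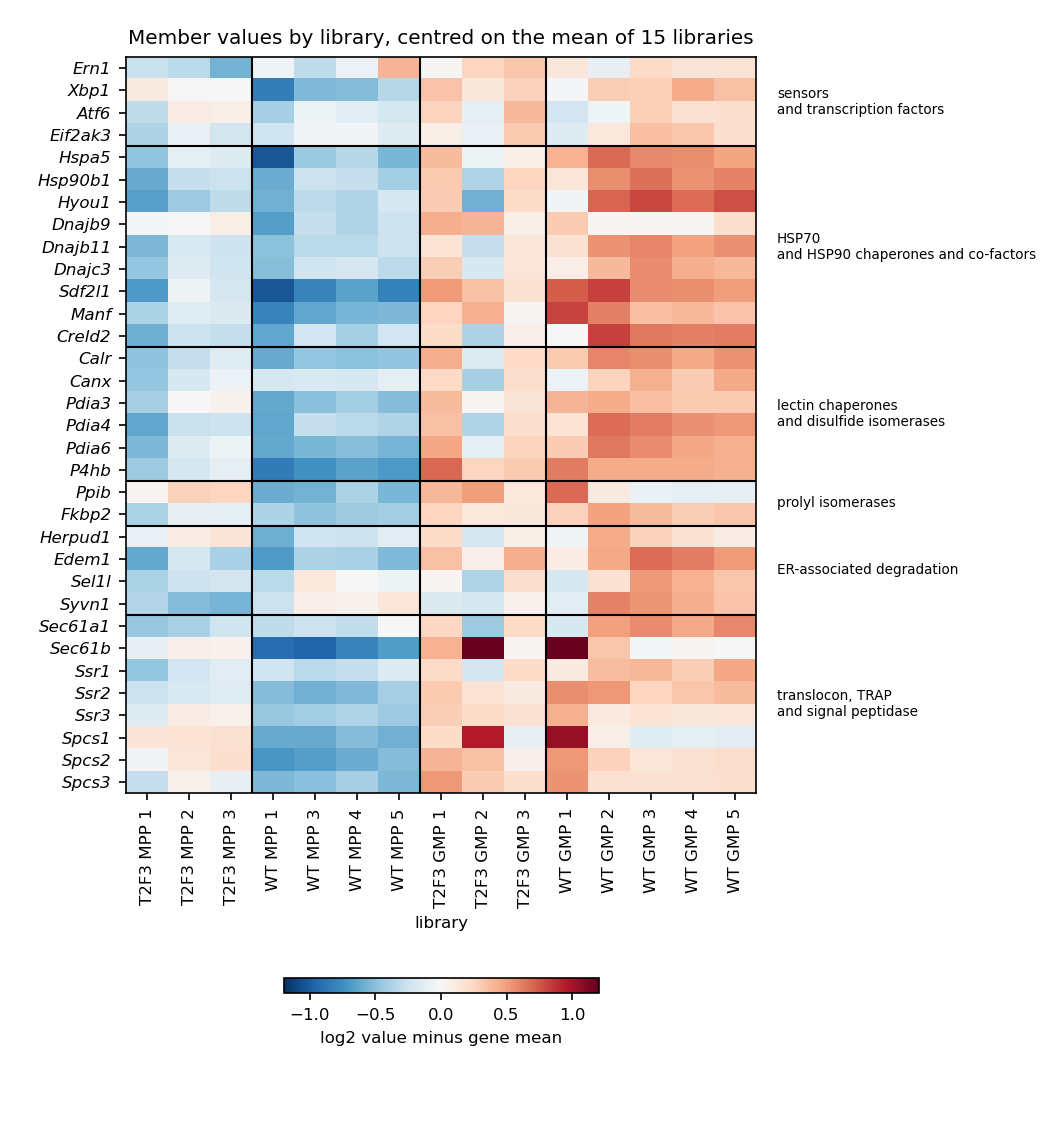
Rows are the 33 members grouped by role, columns the 15 libraries (T2F3 MPP, WT MPP, T2F3 GMP, WT GMP), and colour is the log2 value minus the mean of the gene over all libraries. GMP columns are mostly red except T2F3 GMP 2, whose median member lies at -0.064, WT MPP columns are mostly blue, T2F3 MPP lies between them for many genes, and Sec61b and Spcs1 stand out in T2F3 GMP 2 and WT GMP 1.

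The first question was how the ER genes change with the T2F3 genotype in MPP. Of the 33 members, 15 rose and 2 fell in T2F3 MPP relative to WT MPP, and 16 did not pass an adjusted p of 0.05 (limma over all 12133 genes, Benjamini-Hochberg). Among all tested genes 40.3% passed, 20.7% as higher and 19.6% as lower, beside 15 of 33 and 2 of 33 members, a contrast that was not tested. The median member differed by 0.22 and the median gene by -0.02. Those that rose were led by the transcription factor Xbp1, by translocon and signal peptidase subunits and by the prolyl isomerase Ppib, with differences of 0.22 to 0.84 (1.17-fold to 1.79-fold). Every T2F3 MPP library lay above every WT MPP library in 13 of the 33 members, a separation found as higher in 28.1% of all genes, and in either direction in 54.1%.

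Among the sensors and transcription factors, Xbp1 rose and Ern1 fell in T2F3 MPP. Xbp1, the transcription factor that IRE1 activates, stood at 10.88, 10.76 and 10.77 in T2F3 MPP, against 9.94, 10.24, 10.25 and 10.42 in WT MPP. The groups did not overlap, and the lowest WT value was that of WT MPP 1. The difference was 0.59 ± 0.12 (SE, adjusted p = 0.00153). Ern1, the gene of the sensor IRE1 itself, stood at 10.49, 10.44 and 10.19 in T2F3 MPP, against 10.71, 10.46, 10.69 and 11.17 in WT MPP. Here the groups overlapped, since WT MPP 3 lay below the highest T2F3 library, and WT MPP 5 was the highest of all. The difference was -0.38 ± 0.14 (SE, adjusted p = 0.0421), and without WT MPP 5 it was -0.24 and did not pass (adjusted p = 0.125). Atf6, the membrane-bound transcription factor, ran from 9.33 to 9.73 in T2F3 MPP and from 9.24 to 9.57 in WT MPP. Eif2ak3, the PERK kinase gene, ran from 8.10 to 8.38 in T2F3 MPP and from 8.23 to 8.44 in WT MPP. Neither passed, and both pairs of ranges overlapped.

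**Figure D2:**
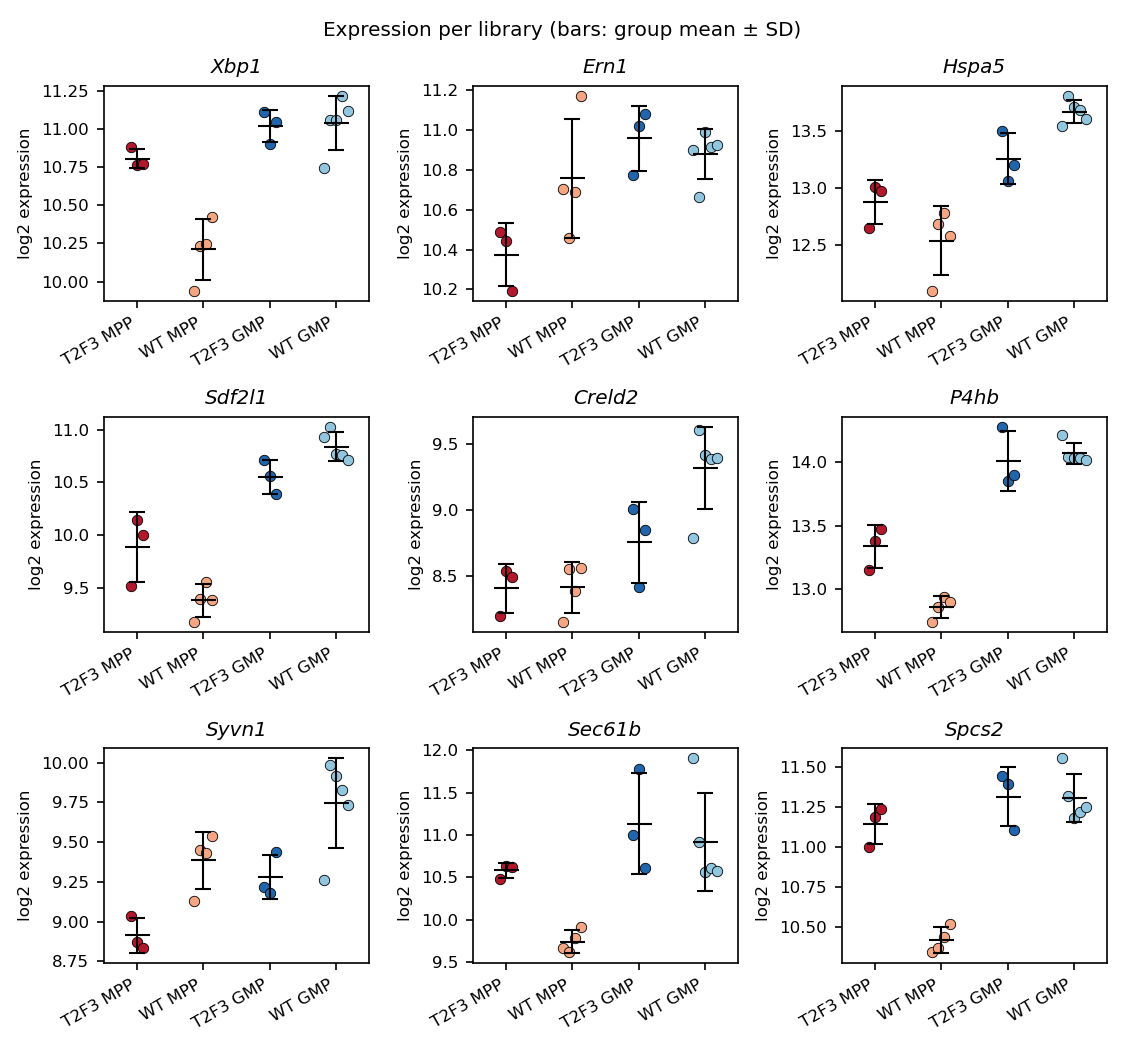
Each panel shows 1 member, with 1 point per library in T2F3 MPP, WT MPP, T2F3 GMP and WT GMP and bars for the group mean ± SD (log2 expression, separate y axes that do not start at 0). Xbp1 and Spcs2 separate T2F3 MPP from WT MPP, Creld2 is near 8.41 in both MPP groups and lower in T2F3 GMP than in WT GMP by mean, and WT GMP 1 lies apart in Creld2, P4hb and Sec61b.

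Of the 9 HSP70 and HSP90 chaperones and co-factors, 3 rose in T2F3 MPP, none fell, and the median difference was 0.03. Sdf2l1, a subunit of an ER chaperone complex, stood at 9.52, 10.15 and 10.01 in T2F3 MPP, against 9.18, 9.40, 9.56 and 9.39 in WT MPP. T2F3 MPP 1 lay just below WT MPP 4, so the groups overlapped there. The difference was 0.51 ± 0.14 (SE, adjusted p = 0.0100). Dnajb9, a J-domain co-chaperone of BiP, stood at 8.38, 8.41 and 8.49 in T2F3 MPP, against 7.75, 8.12, 8.05 and 8.16 in WT MPP. These groups lay apart, by 0.41 ± 0.12 (SE, adjusted p = 0.0128). Manf, a secreted ER-stress protein, rose by 0.40 ± 0.13 (SE, adjusted p = 0.0228), also without overlap. Hspa5, the gene of BiP, stood at 12.65, 13.01 and 12.97 in T2F3 MPP, against 12.10, 12.68, 12.78 and 12.58 in WT MPP. T2F3 MPP 1 lay below 2 of the WT libraries, and the difference of 0.34 ± 0.16 (SE) did not pass (adjusted p = 0.0984). Hsp90b1, the ER member of the HSP90 family, averaged 12.53 ± 0.19 in T2F3 MPP and 12.53 ± 0.16 in WT MPP (SD, n = 3 and 4). Means of the co-chaperones Dnajb11 and Dnajc3 and of Creld2, an ER-stress inducible isomerase-like gene, lay within 0.03 of each other between the genotypes. Hyou1, a large relative of HSP70, ran from 10.91 to 11.26 in T2F3 MPP and from 10.99 to 11.36 in WT MPP.

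Of the 6 lectin chaperones and disulfide isomerases, 2 rose. Pdia3, the isomerase that works with calnexin and calreticulin, stood at 12.49, 12.88 and 12.93 in T2F3 MPP, against 12.28, 12.39, 12.48 and 12.37 in WT MPP. P4hb, the gene of protein disulfide isomerase itself, stood at 13.15, 13.38 and 13.48 in T2F3 MPP, against 12.75, 12.87, 12.94 and 12.90 in WT MPP. Neither pair of groups overlapped, although T2F3 MPP 1 came within 0.01 of WT MPP 4 in Pdia3. The differences were 0.39 ± 0.13 for Pdia3 (SE, adjusted p = 0.0228) and 0.47 ± 0.13 for P4hb (SE, adjusted p = 0.0104). Under quantile normalization neither passed, at 0.099 for Pdia3 (adjusted p = 0.522) and 0.056 for P4hb (adjusted p = 0.798). Pdia6, another disulfide isomerase, differed by 0.31 ± 0.14 (SE) without passing (adjusted p = 0.0852), and its T2F3 MPP 1 value of 11.29 lay among the WT values. The calcium-binding lectin chaperone Calr averaged 13.83 ± 0.17 in T2F3 MPP and 13.62 ± 0.06 in WT MPP (SD). Canx and Pdia4 had group means within 0.07 of each other. The prolyl isomerases, which speed the turning of proline bonds, both passed the test. Ppib, encoding cyclophilin B, stood at 9.70, 9.94 and 9.92 in T2F3 MPP, against 9.06, 9.09, 9.28 and 9.12 in WT MPP, a clear separation of 0.71 ± 0.16 (SE, adjusted p = 0.0029). Fkbp2 rose by 0.22 ± 0.08 (SE, adjusted p = 0.0448), with T2F3 MPP 1 at 8.24 inside the WT range of 8.14 to 8.25. The call of Fkbp2 held under 11 of the 27 alternatives and was lost in 10 of the 15 that left out 1 library, and that of Ppib held under all 27.

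The 4 degradation factors split. Herpud1, a scaffold of the degradation complex, averaged 10.06 ± 0.12 in T2F3 MPP and 9.70 ± 0.19 in WT MPP (SD) and rose by 0.36 ± 0.13 (SE, adjusted p = 0.0414). Syvn1, the gene of the ubiquitin ligase HRD1 at the centre of that complex, stood at 9.04, 8.87 and 8.83 in T2F3 MPP, against 9.13, 9.45, 9.43 and 9.54 in WT MPP. Every T2F3 library lay below every WT library, by -0.47 ± 0.15 (SE, adjusted p = 0.0184). The partner of HRD1, Sel1l, averaged 9.93 ± 0.08 in T2F3 MPP and 10.15 ± 0.19 in WT MPP (SD) and did not pass. Edem1, a lectin that hands misfolded glycoproteins to the complex, averaged 10.32 ± 0.20 in T2F3 MPP and 10.23 ± 0.14 in WT MPP (SD) and did not pass either.

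Entry into the ER held the most rises, 6 of 8 subunits, with a median of 0.40. In all 6 the groups did not overlap, a separation found as higher in 28.1% of all genes. Sec61b, the small subunit of the translocon, stood at 10.48, 10.64 and 10.62 in T2F3 MPP, against 9.66, 9.61, 9.78 and 9.91 in WT MPP (0.84 ± 0.28, SE, adjusted p = 0.028). Spcs1, a signal peptidase subunit, stood at 9.97, 9.97 and 9.99 in T2F3 MPP, against 9.21, 9.20, 9.28 and 9.23 in WT MPP (0.75 ± 0.25, SE, adjusted p = 0.0269). Spcs2, a further subunit of that enzyme, stood at 11.00, 11.19 and 11.24 in T2F3 MPP, against 10.34, 10.38, 10.44 and 10.52 in WT MPP. Its difference of 0.72 ± 0.11 (SE) had the smallest adjusted p among the members here, 1.35e-04. The SEs of Sec61b and Spcs1 are wide for such tight groups because the model shares 1 spread over all 4 groups, and both genes varied widely in GMP. Spcs3 rose by 0.39 ± 0.12 (SE, adjusted p = 0.0162), and the TRAP subunits Ssr2 and Ssr3 by 0.31 ± 0.09 (SE, adjusted p = 0.0154) and 0.41 ± 0.10 (SE, adjusted p = 0.00607). In the 15 fits that left out 1 library, Spcs1 lost its call in 6, Sec61b in 4, and Ssr2 and Spcs3 in 2 each. With the replicate number as a block in the model, Spcs2 passed and Sec61b, Spcs1, Spcs3, Ssr2 and Ssr3 did not. Sec61a1, the pore subunit, and Ssr1, another TRAP subunit, had overlapping groups, at 11.07 ± 0.11 and 11.82 ± 0.17 in T2F3 MPP and 11.21 ± 0.14 and 11.84 ± 0.07 in WT MPP (SD).

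Ribosomal protein genes were higher in the same comparison, 58 of 73 with a median of 0.72, and their part in the rise of the ER entry genes was not tested. Within the MPP groups the ribosomal list barely varied, with deviations of -0.04 to 0.05 per library. Markers of other cell types also differed: 11 of 13 dendritic cell markers and 8 of 9 tested monocyte markers were higher in T2F3 MPP, and 7 of 8 tested plasma and B cell markers, 6 of 7 basophil and mast cell markers and 8 of 8 erythroid markers were lower. Of 10 MPP and stem cell markers 2 were higher and 5 lower, and of 10 GMP markers 2 were higher and 1 lower. Summed on the linear scale and returned to log2, the dendritic list stood between 15.4 and 16.2 in T2F3 MPP and between 13.01 and 13.7 in WT MPP, the basophil and mast cell list between 10.1 and 10.4 in T2F3 MPP and between 11.2 and 11.3 in WT MPP, and the plasma and B cell list between 8.76 and 9.91 in T2F3 MPP and between 9.94 and 10.7 in WT MPP. Every gene of the dendritic list was above 0 in each group, Hbb-bt of the erythroid list was listed at 0 in every library, and the part of other cell types in the ER genes was not tested. The count of 17 members fell to 4 without T2F3 MPP 3, to 6 without T2F3 MPP 2 and to 10 without WT MPP 1. The count over all genes also fell without T2F3 MPP 2 or T2F3 MPP 3, as given at the end. Of the 17 calls, 4 held whichever single library was left out (Xbp1, Ppib, Spcs2 and Ssr3). Xbp1, Ppib and Spcs2 kept their call under all 27 alternatives, and under quantile normalization the median member difference was 0.08, although 14 members still passed.

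**Figure D3:**
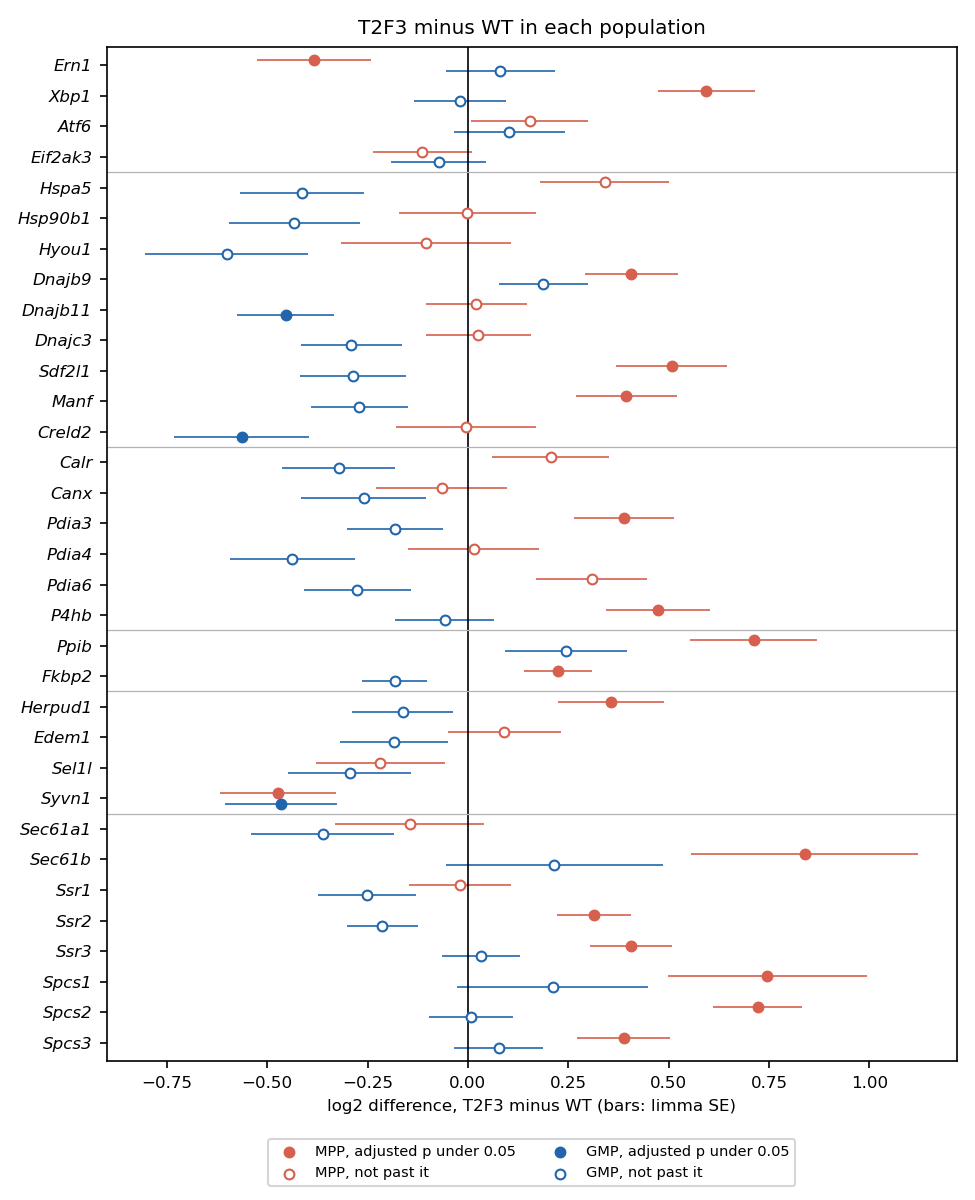
For each member, grouped by role, the log2 difference of T2F3 minus WT with its limma SE is shown in MPP (red) and in GMP (blue), filled where the adjusted p is under 0.05. In MPP 15 members are filled to the right of 0 and 2 to the left, and in GMP 3 are filled, all to the left.

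The same question was put to GMP, where 3 members fell, 0 rose and 30 did not pass. Among all tested genes 15.3% passed, 6.04% as lower and 9.25% as higher, so 3 of 33 is near the rate of the table. The median member differed by -0.21 and the median gene by -0.02; without T2F3 GMP 2 the median member differed by -0.11. Those that fell were the co-chaperone Dnajb11, the ubiquitin ligase Syvn1 and Creld2. Dnajb11 stood at 10.04, 9.59 and 10.02 in T2F3 GMP, against 10.05, 10.40, 10.45, 10.35 and 10.41 in WT GMP. Every T2F3 library lay below every WT library, although T2F3 GMP 1 and WT GMP 1 were almost level, and the difference was -0.45 ± 0.12 (SE, adjusted p = 0.0180). Syvn1 stood at 9.22, 9.18 and 9.44 in T2F3 GMP, against 9.26, 9.98, 9.92, 9.83 and 9.74 in WT GMP. WT GMP 1 fell inside the T2F3 range, and the difference was -0.47 ± 0.14 (SE, adjusted p = 0.0323). Creld2 stood at 9.01, 8.42 and 8.85 in T2F3 GMP, against 8.79, 9.61, 9.42, 9.39 and 9.39 in WT GMP. WT GMP 1 again lay inside the T2F3 range, and the difference was -0.56 ± 0.17 (SE, adjusted p = 0.0318).

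Among the other chaperones of GMP, Hspa5 stood at 13.50, 13.06 and 13.20 in T2F3 GMP, against 13.55, 13.81, 13.71, 13.68 and 13.60 in WT GMP. The groups did not overlap, as in 7.49% of all genes with T2F3 lower, yet the difference of -0.41 ± 0.15 (SE) missed the threshold (adjusted p = 0.0809). Hyou1 differed by -0.60 ± 0.20 (SE, adjusted p = 0.0557), the largest uncalled difference, with T2F3 GMP 2 at 10.99 and WT GMP 1 at 11.53 low in their groups. Hsp90b1 (-0.43, adjusted p = 0.0852) and the disulfide isomerase Pdia4 (-0.44, adjusted p = 0.0682) lay on the same side without passing. Without T2F3 GMP 2 the differences were -0.32 for Hyou1, -0.22 for Hsp90b1 and -0.22 for Pdia4, with adjusted p of 0.342 to 0.447. Without WT GMP 1 they were -0.75 for Hyou1, -0.52 for Hsp90b1 and -0.52 for Pdia4, and each passed, as did Hspa5 (-0.44, adjusted p = 0.0369). Of all 12133 tested genes 6425 had a negative difference in GMP. Of the 9 genes of the HSP70 and HSP90 role, 8 had a negative difference. So had 6 of 6 lectin chaperones and isomerases and 4 of 4 degradation factors. The genes of a role were read in the same libraries, so these counts are not independent observations. Without T2F3 GMP 2 these counts were 8, 5 and 4, and the medians of these roles were -0.31, -0.11 and -0.11, where all libraries gave -0.41, -0.27 and -0.24. Fkbp2 was the third member whose groups did not overlap, at 8.79 ± 0.07 in T2F3 GMP and 8.98 ± 0.08 in WT GMP (SD, n = 3 and 5), and it did not pass. The translocon, TRAP and signal peptidase genes had a median of 0.02 (-0.093 without T2F3 GMP 2 and 0.080 without WT GMP 1), and the 4 sensors and factors a median of 0.03 (0.045 without T2F3 GMP 2 and -0.033 without WT GMP 1). Xbp1 averaged 11.02 ± 0.11 in T2F3 GMP and 11.04 ± 0.18 in WT GMP (SD).

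The GMP counts leaned on single libraries. Without WT GMP 1, 13 members passed (11 lower and 2 higher), with 3759 of all genes passing where 1855 had passed before. Without T2F3 GMP 1 there were 5 members, without T2F3 GMP 2 there were 0, and without any 1 of WT GMP 2 to 5 there was 1. The count over all genes also fell without T2F3 GMP 2, as given at the end. With WT GMP 1 and T2F3 GMP 2 both left out, 5 passed, 4 of them lower, and Dnajb11 (-0.38), Syvn1 (-0.54) and Creld2 (-0.53) all passed still. The roles deviated in different directions in the libraries with high ribosomal values: WT GMP 1 lay at -0.28 in the HSP70 and HSP90 role and -0.41 in the degradation role, but at 0.24 in the translocon role and 0.25 in the prolyl isomerases (median deviation from its group, log2). T2F3 GMP 2 lay at -0.27 in the HSP70 and HSP90 role, -0.33 in the lectin and isomerase role and -0.02 in the translocon role. In Sec61b, T2F3 GMP 2 stood at 11.78 and WT GMP 1 at 11.91, while the other libraries of T2F3 GMP stood at 10.99 and 10.61 and those of WT GMP between 10.56 and 10.91. In Spcs1 the same pair stood at 10.76 and 10.85, with the others between 9.67 and 10.03. Markers of other cell types differed here too, 12 of 13 dendritic markers and 6 of 9 monocyte markers higher and 7 of 7 tested basophil and mast cell, 8 of 8 erythroid and 4 of 8 plasma and B cell markers lower in T2F3 GMP, and their part in these differences was not tested. The summed dendritic level was 14.9 to 15.2 in T2F3 GMP and 12.0 to 12.3 in WT GMP, and the summed basophil and mast cell level 10.8 to 11.5 in T2F3 GMP and 12.6 to 13.2 in WT GMP.

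**Figure D4:**
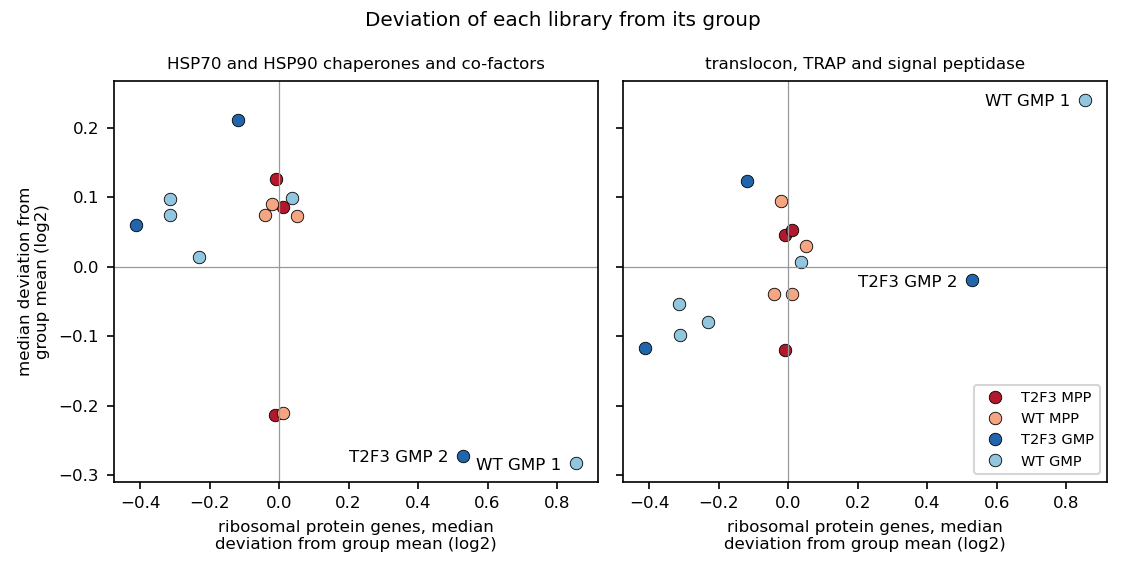
Each point is 1 library (T2F3 MPP, WT MPP, T2F3 GMP, WT GMP), placed by the median deviation of 73 ribosomal protein genes from its group mean (x axis, log2) and by that of the HSP70 and HSP90 role (left) or of the translocon role (right). WT GMP 1 and T2F3 GMP 2 lie far to the right in both panels, low at -0.28 and -0.27 on the left and at 0.24 and -0.02 on the right.

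Whether the genotype effect differed between GMP and MPP was tested as an interaction, the T2F3 effect in GMP minus the T2F3 effect in MPP. Of the 33 members 3 passed, all negative, against 2.26% of all genes (1.38% as higher and 0.882% as lower). The median member stood at -0.47 and the median gene at -0.01. Sdf2l1 had an effect of -0.29 in GMP and 0.51 in MPP (interaction -0.79 ± 0.19, SE, adjusted p = 0.0428). The TRAP subunit Ssr2 had an effect of -0.21 in GMP and 0.31 in MPP (-0.53 ± 0.13, SE, adjusted p = 0.0443). Spcs2 had an effect of 0.01 in GMP and 0.72 in MPP (-0.71 ± 0.15, SE, adjusted p = 0.0244). In these 3 genes the T2F3 and WT means lay closer together in GMP than in MPP, or in the opposite order. Just outside the threshold were Manf (-0.67 ± 0.18, adjusted p = 0.0587), Xbp1 (-0.61 ± 0.17, adjusted p = 0.0650) and Fkbp2 (-0.41, adjusted p = 0.0813). Hspa5 (-0.75 ± 0.22, adjusted p = 0.0895) and Pdia3 (-0.57, adjusted p = 0.0959) followed. Syvn1 had the same effect in both, -0.47 in GMP and -0.47 in MPP, with an interaction of 0.01. The 3 calls were lost in many alternatives. The count was 0 without T2F3 MPP 2, T2F3 MPP 3, T2F3 GMP 3 or any 1 of WT MPP 1, 3 and 4. It was 1 without WT GMP 2, 4 or 5, and 8 without T2F3 MPP 1. It was 5 without WT GMP 1 and 10 without WT GMP 1 and T2F3 GMP 2 together. The count over all genes moved too, and it rose with both libraries out, as given at the end. These member counts therefore do not set the members apart from the table. The ribosomal list had a median interaction of -0.45, with 0 of 73 passing, and its part was not tested.

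The step between the populations gave the largest member differences in WT, up to 1.46. In T2F3 the step reached 0.69, below the largest genotype difference in MPP (0.84). GMP exceeded MPP in 10 of 33 members in T2F3 and in 30 of 33 in WT, and no member was lower in GMP by the test in either genotype. In T2F3 22.2% of all genes passed, 10.5% as higher, and in WT 48.6%, 25.4% as higher. The median member differed by 0.37 in T2F3 and by 0.81 in WT, where the median gene differed by 0.01 and 0.03. The GMP and MPP libraries did not overlap in 13 members in T2F3 (16.1% of all genes, as higher) and in 27 in WT (43% of all genes, 22.6% as higher and 20.4% as lower). The difference between these 2 steps is the interaction given above, which passed for 3 members, so a step called in WT and not in T2F3 is not by itself shown to differ.

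**Figure D5:**
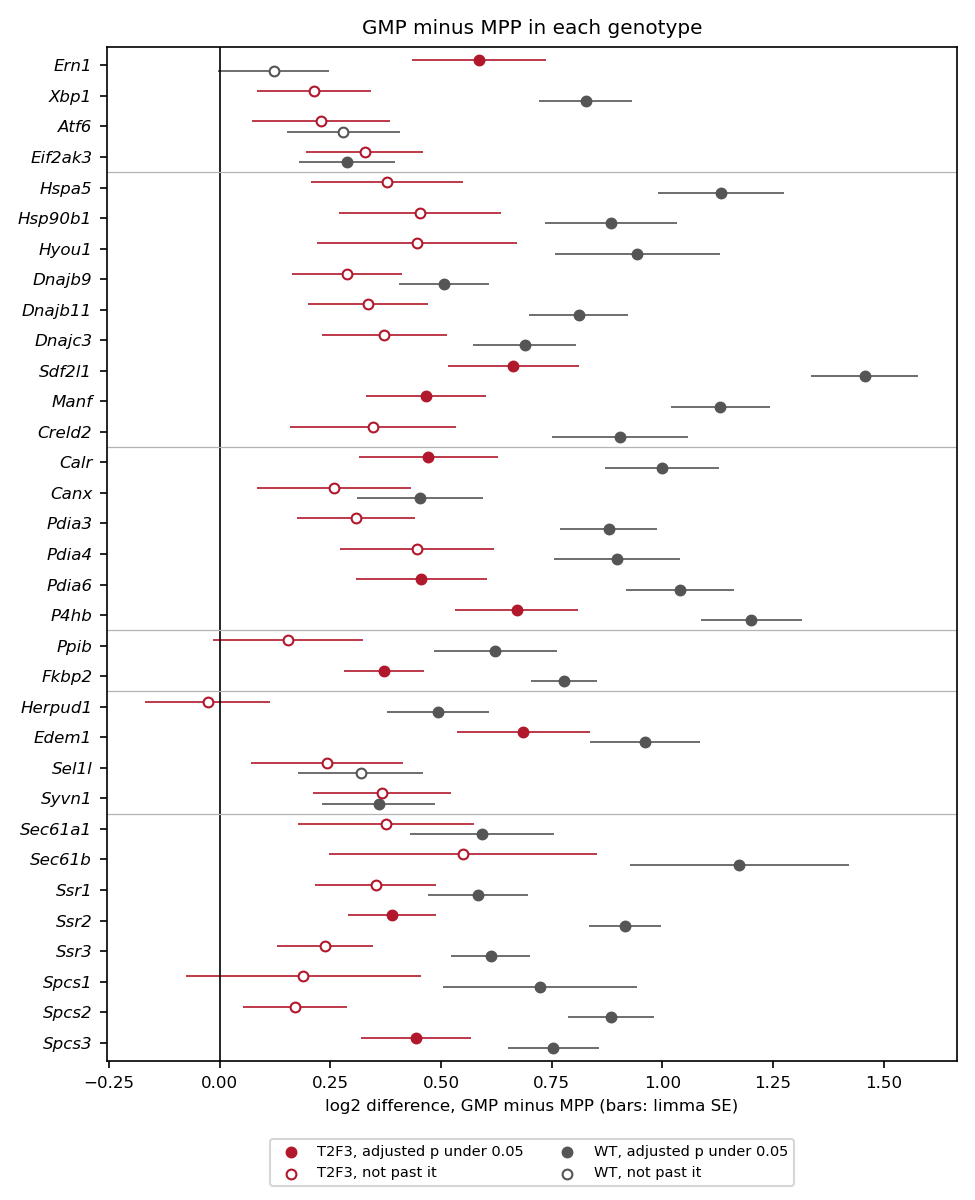
For each member the log2 difference of GMP minus MPP with its limma SE is shown in T2F3 (red) and in WT (grey), filled where the adjusted p is under 0.05. In WT 30 members are filled and the points reach 1.46 at Sdf2l1; in T2F3 10 are filled and the points stay at or under 0.69.

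In WT, all 9 HSP70 and HSP90 genes, all 6 lectin chaperones and isomerases, both prolyl isomerases and all 8 entry genes were higher in GMP. In T2F3 these roles had 2, 3, 1 and 2 calls. Sdf2l1 averaged 10.55 ± 0.16 in T2F3 GMP and 9.89 ± 0.33 in T2F3 MPP (SD, n = 3 each), a step of 0.66 ± 0.15 (SE, adjusted p = 0.00324). In WT it averaged 10.84 ± 0.14 in GMP and 9.38 ± 0.16 in MPP (SD, n = 5 and 4), a step of 1.46 ± 0.12 (SE, adjusted p = 8.31e-08) and the largest of the members at 2.74-fold. P4hb averaged 14.01 ± 0.23 in T2F3 GMP and 13.34 ± 0.17 in T2F3 MPP (SD), a step of 0.67 ± 0.14 (SE, adjusted p = 0.00179). Its step in WT was 1.201 ± 0.11 (SE, adjusted p = 3.48e-07), with 14.07 ± 0.08 in GMP and 12.86 ± 0.08 in MPP (SD). No GMP library overlapped an MPP library of its genotype in these genes. Hspa5 stepped by 0.38 ± 0.17 in T2F3 (SE, adjusted p = 0.139) and by 1.13 ± 0.14 in WT (SE, adjusted p = 6.57e-06). Manf stepped by 0.47 in T2F3 and 1.13 in WT, Pdia6 by 0.46 and 1.04, and Calr by 0.47 and 1.00, and these 6 steps passed, as did those of Fkbp2 (0.37 in T2F3 and 0.78 in WT). Ssr2 and Spcs3 were the entry genes that passed in both genotypes, by 0.39 and 0.44 in T2F3 and by 0.92 and 0.75 in WT. Sec61b, at 0.55 ± 0.30 in T2F3 (SE, adjusted p = 0.230) and 1.17 ± 0.25 in WT (SE, adjusted p = 9.75e-04), passed in WT. Without T2F3 GMP 2 its T2F3 step was 0.22 (adjusted p = 0.625), and without WT GMP 1 its WT step was 0.925 (adjusted p = 0.000462).

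The degradation factors had a median step of 0.30 in T2F3 and 0.43 in WT, and the sensors and factors 0.28 in both. Edem1 averaged 11.00 ± 0.20 in T2F3 GMP and 10.32 ± 0.20 in T2F3 MPP (SD), a step of 0.69 ± 0.15 (SE, adjusted p = 0.00288), and stepped by 0.96 in WT (adjusted p = 9.00e-06). Edem1 and Sdf2l1 were the members whose T2F3 step passed under all 27 alternatives. Syvn1 stepped by 0.37 in T2F3 without passing (adjusted p = 0.109) and by 0.36 in WT (adjusted p = 0.0284). Ern1 was the one member whose step passed in T2F3 and not in WT. It stepped by 0.59 ± 0.15 (SE, adjusted p = 0.00967) in T2F3, against 0.12 ± 0.12 in WT (SE, adjusted p = 0.440). It averaged 10.96 ± 0.16 in T2F3 GMP and 10.37 ± 0.16 in T2F3 MPP, and 10.88 ± 0.13 in WT GMP and 10.76 ± 0.30 in WT MPP (SD). The WT MPP mean was raised by WT MPP 5 at 11.17, with the other WT MPP libraries between 10.46 and 10.71. The T2F3 call of Ern1 did not hold in every fit that left out 1 library. The interaction of Ern1, 0.46 ± 0.20, did not pass (adjusted p = 0.214). Xbp1 stood at 11.11, 10.90 and 11.05 in T2F3 GMP, above all 3 T2F3 MPP libraries, and its step there was not called, while its step in WT was 0.83 ± 0.11 (SE, adjusted p = 8.45e-06). In WT the step of Sel1l (0.32, adjusted p = 0.0719) and of Atf6 (0.28, adjusted p = 0.0809) did not pass, and that of Eif2ak3 did (0.29, adjusted p = 0.0384). The Eif2ak3 call was lost in 7 fits that left out 1 library, and under median centring and quantile normalization. Of the 30 calls in WT, 28 held whichever single library was left out, all but those of Eif2ak3 and Syvn1. In WT the count ran from 26 to 32 over all alternatives, and 26 of the 30 calls held in each. In T2F3 the count was 6 without T2F3 MPP 1 or T2F3 GMP 1, 18 without T2F3 GMP 2, 17 without WT GMP 1 and 25 without both. The share of all genes in these refits is not given, so these counts do not set the members apart from the table. Of the 10 calls in T2F3, 5 held whichever single library was left out (Fkbp2, P4hb, Edem1, Sdf2l1 and Ssr2). Quantile normalization, which left 4 calls in T2F3 and 26 in WT, lowered the median step to 0.26 in T2F3 and 0.54 in WT. Ribosomal protein genes had a median step of 0.03 in T2F3 with 0 of 73 higher, and of 0.49 in WT with 28 of 73 higher. Among the cell type lists, 12 of 13 dendritic markers were lower in GMP in each genotype, 4 of 7 basophil and mast cell markers were higher in T2F3 and 6 of 7 in WT, 5 of 9 monocyte markers were higher in T2F3 and 7 of 9 in WT, 1 of 8 plasma and B cell markers was lower in T2F3 and 7 of 8 in WT, and 0 of 8 erythroid markers were lower in T2F3 and 7 of 8 in WT. The part of these lists in the steps was not tested.

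The members were also set by promoter class, a description with no test that was made with the values known. Of the 8 members with an ERSE, 0 rose and 1 (Syvn1) fell in T2F3 MPP, with a median of 0.01 and a range of -0.47 to 0.34, where 20.7% of all genes were higher and 19.6% lower. Of the 19 with a promoter entry and no exact ERSE in the window, 12 rose and 1 (Ern1) fell, with a median of 0.39. The classes also differ in role. No ERSE member is a translocon, TRAP, signal peptidase or prolyl isomerase gene. The 12 rises include Sec61b, Spcs1, Spcs2, Ssr3, Ppib and Fkbp2 from those roles. In GMP all 8 ERSE members had a negative difference, as had 6425 of all 12133 tested genes. The 8 lay between -0.56 and -0.26 with a median of -0.37. Of them 2 (Syvn1 and Creld2) passed, where 6.04% of all genes were lower. Without T2F3 GMP 2 the 8 lay between -0.42 and -0.05 with a median of -0.19, and without WT GMP 1 between -0.70 and -0.32 with a median of -0.41. The 19 without one had a median of -0.07 in GMP, with 12 negative and 1 (Dnajb11, which holds an ERSE-II) called. For the step to GMP, in T2F3 2 of 8 and 5 of 19 passed, with medians of 0.38 and 0.33, where 10.5% of all genes were higher. In WT 8 of 8 and 17 of 19 passed, with medians of 0.89 and 0.78, where 25.4% of all genes were higher. The 6 members with no promoter entry had medians of 0.23 in the MPP comparison and -0.24 in the GMP comparison.

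Other genes of the pathway, from lists that hold none of the 33, were counted in the same fits, in which 20.7% of all genes were higher and 19.6% lower in T2F3 MPP, and 9.25% higher and 6.04% lower in T2F3 GMP. Of 36 further ER folding enzymes, 2 rose and 3 fell in T2F3 GMP, and 15 rose and 2 fell in T2F3 MPP, with a median of 0.23 in MPP. Pdia5, a disulfide isomerase, rose in T2F3 MPP by 0.94 ± 0.13 (SE, adjusted p = 4.12e-05) and stood at 0.10 in GMP without passing. Its interaction passed (-0.84 ± 0.18, SE, adjusted p = 0.0218). Erp29, a chaperone of secretory proteins, rose by 0.70 in T2F3 MPP (adjusted p = 5.56e-04). Of 25 further degradation and quality control genes, 4 rose and 2 fell in T2F3 MPP, no more than the rates over all genes; in T2F3 GMP 0 rose and 1 fell. The gene that fell in GMP was Edem3, a relative of Edem1, at -0.83 ± 0.13 in GMP (SE, adjusted p = 2.20e-04) and -0.50 ± 0.13 in MPP (SE, adjusted p = 0.00891), while Selenos, a membrane partner of the degradation complex, rose by 0.68 in MPP. Of 32 further translocon, signal recognition and oligosaccharyltransferase genes, 9 rose and 3 fell in T2F3 MPP, among the rises Get3 (0.48, adjusted p = 0.00341), which delivers tail-anchored proteins, and Tmem258 (0.48, adjusted p = 0.0122), an oligosaccharyltransferase subunit. In T2F3 GMP 0 of these rose and 1 fell.

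For the step to GMP, 10.5% of all genes were higher in T2F3 and 25.4% in WT, and 11.7% were lower in T2F3 and 23.2% in WT. These lists stood at 5 of 36 higher in T2F3 and 24 of 36 in WT for folding enzymes, 4 and 15 of 25 for degradation, and 3 and 23 of 32 for the translocon list. The 30 tested carriers between ER and Golgi gave 5 higher in T2F3 and 21 in WT. By genotype, 8 of these carriers rose and 3 fell in T2F3 MPP, and 0 rose and 2 fell in T2F3 GMP. One of the carriers, Kdelr2, the receptor that returns escaped chaperones to the ER, fell in T2F3 GMP (-0.52 ± 0.11, SE, adjusted p = 0.00268). It stepped by 0.47 in T2F3 and 0.95 in WT, and all 3 differences passed. Ergic3, another carrier, rose in T2F3 MPP (0.35, adjusted p = 0.00496). Of the 15 tested genes of the PERK and ATF4 branch, 0 rose and 4 fell in T2F3 MPP, and 1 rose and 1 fell in T2F3 GMP. Their step to GMP went both ways, as it did over all genes, with 3 higher and 3 lower in T2F3 and 4 higher and 5 lower in WT. The stress-induced gene Ddit4 rose in T2F3 GMP (0.90 ± 0.17, SE, adjusted p = 0.00137). Vldlr, a lipoprotein receptor, fell in T2F3 MPP (-2.31 ± 0.18, SE, adjusted p = 1.08e-07) and in T2F3 GMP (-0.55 ± 0.17, SE, adjusted p = 0.0356). Of 22 tested UPR regulators, 4 rose and 3 fell in T2F3 MPP, near the rates over all genes, and 2 rose and 0 fell in T2F3 GMP. The ER-bound transcription factor Creb3 was higher in MPP (0.62 ± 0.09, SE, adjusted p = 9.26e-05) and in GMP (0.32 ± 0.09, SE, adjusted p = 0.0204). The stress kinase Map3k5 was lower in MPP (-0.56 ± 0.10, SE, adjusted p = 5.62e-04).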

How the data were processed

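Per the labels' protocols, RNA of sorted bone marrow progenitors was sequenced from strand-specific mRNA libraries. The deposited table holds regularised log2 values per Entrez gene in 15 libraries, made by the authors; STAR, Bowtie, HOMER, DESeq2 and the mm9 build are named in the submitters' processing notes, without versions or roles. Regularised values borrow strength across libraries and hold no counts, so no count test was possible. Gene symbols were assigned through Entrez IDs (24345 of 24424 matched).

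Genes with a mean of at least 4 were tested (12133) with limma 3.58.1 in R 4.3.3, with 1 mean per group over all 15 libraries, contrasts, and empirical Bayes with trend and robust options; tests were two-sided and Benjamini-Hochberg adjusted p under 0.05 made a call. A difference is the first named group minus the second on the log2 scale, and fold is 2 to that power. Groups were called apart where no library of one lay within the range of the other. Figures were drawn with Matplotlib 3.10.9 and tables made with pandas 2.3.3 and NumPy 2.4.6 in Python 3.11.15.

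Every member was described, and of each other pathway list the 2 genes with the smallest adjusted p over the MPP and GMP genotype comparisons were named. The members and lists were chosen with earlier results of these data known. The alternatives were 12 other settings of filter, scale, model and libraries, and leaving out each of the 15 libraries in turn.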

Additional observations from a re-analysis of the deposited data

Results flagged for a closer look

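Of 66 sets of values tested for a sample far from the rest (33 members in each of the WT groups, the T2F3 groups being too small), 12 held one. Chance gives about 1 in 20 for a single set. The sets share the same libraries and are not independent, so the count of 12 cannot be weighed against that rate. In 11 of the 12 it was WT GMP 1. Its value was the lowest of WT GMP in Hsp90b1 (13.05, nearest 13.45), Hyou1 (11.53, nearest 12.24), Dnajb11 (10.05, nearest 10.35), Creld2 (8.79, nearest 9.39) and Sec61a1 (11.23, nearest 11.88). It was the highest of WT GMP in P4hb (14.21, nearest 14.04), Ppib (10.34, nearest 9.77), Sec61b (11.91, nearest 10.91), Ssr3 (12.45, nearest 12.18), Spcs1 (10.85, nearest 9.88) and Spcs3 (12.14, nearest 11.80). In Ern1 it was WT GMP 2, at 10.66, with the nearest library at 10.90. WT GMP 1 also stood highest of its group in the ribosomal protein genes.

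The T2F3 effect differed between GMP and MPP by the interaction test in 3 members, Sdf2l1 (-0.79), Ssr2 (-0.53) and Spcs2 (-0.71). Of all genes 2.26% passed this test, and none of the 3 calls held in every fit that left out 1 library.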

How the results depend on the processing

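Over 27 alternatives no called difference of a single member changed sign. Of 63 such differences 31 passed in every setting: 26 of 30 for the step in WT, 2 of 10 for the step in T2F3, 3 of 17 for genotype in MPP, and none of the 3 for genotype in GMP or the 3 for the interaction. For genotype in MPP (17 members) the replicate block gave 4, and leaving out 1 library gave 4 to 18. For genotype in GMP (3) array weights gave 11, the groups of the comparison alone 0, the replicate block 0, WT GMP 1 and T2F3 GMP 2 left out together 5, a ribosomal score as covariate 19, and leaving out 1 library 0 to 13. For the interaction (3) a mean of at least 6 gave 1, array weights 14, the replicate block 0, a block by animal 5, both libraries out 10, the ribosomal covariate 20, and leaving out 1 library 0 to 8. For the step in T2F3 (10) quantile normalization gave 4, array weights 26, the groups alone 5, both libraries out 25, the ribosomal covariate 27, and leaving out 1 library 6 to 18; the replicate block gave 8. For the step in WT (30) leaving out 1 library gave 28 to 32. The cause of these shifts was not tested, and the ribosomal score is taken within groups, so it removes no difference between them.

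Among all genes, calls for genotype in MPP (4889) became 7795 with array weights and 2732 with the replicate block, and 2859 or 2892 without T2F3 MPP 2 or 3. For genotype in GMP (1855) they became 4103 with array weights, 1180 with the groups alone, 4313 with the covariate, and 1174 or 3759 without T2F3 GMP 2 or WT GMP 1. Interaction calls (274) became 436 without a filter, 140 at a mean of at least 6, 1494 with array weights, 1204 with both libraries out, 2431 with the covariate and 79 to 586 with 1 library out. Calls for the step in T2F3 (2690) became 4389 with array weights and 4215 with the covariate. Median centring moved the share of higher calls from 51.3% to 40.2% (MPP), 52.2% to 42.2% (step in WT) and 60.9% to 74.5% (interaction).

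Same-numbered libraries of both genotypes correlated between -0.33 and 0.52 in their deviations (5 pairs). Same-numbered MPP and GMP libraries of one genotype correlated between 0.055 and 0.46 (7 pairs), all positive. Differently numbered MPP and GMP libraries of one genotype ran from -0.333 to 0.405, and not every library correlated best with its own number. The labels do not say what a number marks, so the numbers were not taken as pairs. Whether same-numbered MPP and GMP came from 1 animal is not known, and the steps between the populations treated the libraries as independent. Unknown depth and shrinkage of the log2 scale limit weakly expressed genes most, and 3 to 5 libraries per group limit all.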
